A study of Mus musculus with 5 samples.

Results

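Glycan transferases are the enzymes of the Golgi that build, branch, cap and sulfate the sugar chains of glycoproteins, glycolipids and proteoglycans, and their transcripts were followed in the luminal layer of the mouse uterus through embryo attachment. The genes were chosen by symbol, with earlier results of these data known. They are those of the count table that begin with Fut, Galnt, St3gal, St6gal, St6galnac, St8sia, B3gnt, B4galt, B3galt, Gcnt, Chst, Mgat, Hs3st, Hs6st or Ndst followed by a digit. This rule took 107 of the 23420 genes in the table. RNA was sequenced from the luminal layer of wild-type C57BL/6N females, cut out by laser microdissection, with the morning of the vaginal plug counted as day 1 of pregnancy. The 5 libraries, 1 per group, came from day 3 morning, day 4 morning, day 4 evening and, on day 5 morning, from the layer at a distance from the attached embryo (day 5 away) and from the layer that surrounds it (day 5 around). The labels of the day 5 pair also name a pole (Mpole for day 5 away, Ampole for day 5 around), so pole and contact with the embryo cannot be told apart. Day 5 females received Chicago blue dye intravenously to mark implantation sites, and the presence of embryos was checked by flushing on days 3 and 4. The ages of the females and the number of females behind each library are not given in the sources used here. For other microdissected groups, of Lif-floxed lines, the methods describe a pool of 3 samples per library, and whether this holds for the 5 libraries here is not stated. Library totals were 15334674 on day 3 morning, 19529491 and 16560409 on the morning and evening of day 4, 16702914 in day 5 away and 19136032 in day 5 around. With 1 library per group, no difference has a replicate check and no p-value is given.

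The surface of the luminal epithelium is covered by a glycocalyx of mucins, glycolipids and heparan sulfate proteoglycans, which the blastocyst meets when it attaches. Galnt enzymes start mucin-type O-glycans on serine and threonine, Gcnt enzymes branch them, Mgat enzymes branch N-glycans, and galactosyl- and N-acetylglucosaminyltransferases lengthen the chains. Fucosyl- and sialyltransferases then cap the ends, where they form H, Lewis and sialylated antigens, and sulfotransferases modify chain ends, chondroitin sulfate and heparan sulfate. Carbohydrate antigens of the uterine epithelium, among them the H antigen made by Fut2, are known to vary with the steroid hormones of early pregnancy, and heparan sulfate is known to bind growth factors at the apical surface.

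Markers of the luminal epithelium were present in all 5 libraries. The 9 listed markers summed to 4974 CPM (counts scaled to a common library size by the TMM method) on day 3 morning, 5199 and 4685 on the morning and evening of day 4, 3661 in day 5 away and 6635 in day 5 around, and none was at 0. The most abundant was Krt8 in the day 3 and day 4 libraries, Krt18 away from the embryo and Epcam around it. The library around the embryo stood apart in markers of other cells. Pou5f1, Nanog and Cdx2, which define the inner cell mass and trophectoderm, were at 0 in the other 4 libraries and had 68, 10 and 22 counts around the embryo. The whole list of 10 embryo markers summed to 1559, 2142, 1826, 770 and 2398 CPM in the order of the libraries above, of which Sox17, a gene that the uterine epithelium also expresses, was the most abundant in each, and 7 of the 10 had counts in at least 1 of the other 4 libraries. Smooth muscle markers (5 genes) summed to 10.8, 18.9, 24.4, 31.6 and 392 CPM, led in each library by Des. Around the embryo Des had 6090 counts and alone made 354 CPM of that sum. The 6 glandular markers in the table summed to 3.92, 4.23, 1.26, 4.13 and 30.4 CPM. Lif led them around the embryo with 304 counts (17.7 CPM), and is also known to be expressed by the stroma near attached embryos. Ttr was at 0 in all libraries, Prss28 and Prss29 in the 3 of days 3 and 4, Spink3 on day 3 morning, and Foxa2 and Lif on day 4 evening. The 5 endothelial markers summed to 12.0, 25.1, 30.0, 44.7 and 95.5 CPM, of which Cdh5 made 71.4 CPM around the embryo. Against day 5 away, Cdh5 alone of the 5 was higher there, and Kdr and Emcn were lower (Kdr by -1.03, but -0.98 with DESeq2 size factors). The 10 stromal markers summed to 599, 548, 629, 567 and 410 CPM, led by Col3a1 in the first 4 libraries and by Hand2 around the embryo, which had 70, 79, 102, 389 and 2282 counts. Of these 10, Hand2 alone was higher around the embryo than away from it, and Col1a2, Col3a1, Dcn and Lum were lower. The 5 leukocyte markers in the table summed to 34.0, 40.0, 36.0, 38.6 and 46.2 CPM, and around the embryo Cd68 was higher than away from it and 3 others that passed the filter were lower. Markers also passed 2-fold in other comparisons. Of the 5 smooth muscle markers, 4 were higher and none lower on day 4 evening than on day 4 morning. Against day 4 evening, 1 of the 9 luminal markers was higher and 3 lower in day 5 away (1 and 2 by library totals). In day 5 around 4 were higher and 3 lower (2 and 3 by totals without the features Rn45s and Lars2). The part of other cells in the values below was not tested, and in these bulk libraries fewer cells of a type and less RNA per cell cannot be told apart.

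Of the 107 genes, 73 had a mean of at least 1 CPM over the 5 libraries and passed the filter, as did 12918 of all genes. Because the filter is a mean, a gene high in 1 library could pass through it alone, among these genes as among all. The other 34 were low, with 7 at 0 in every library and 11 at no more than 3 counts in any. The 73 comprised 6 of 9 fucosyltransferase genes, 10 of 16 Galnt genes, 3 of 5 Gcnt genes, 14 of 20 sialyltransferase genes, 17 of 21 genes of chain extension (B3galt, B3gnt and B4galt), 7 of 8 Mgat genes, 9 of 14 Chst genes and 7 of 14 genes of heparan sulfate modification. The symbols were nearly all those of protein-coding genes (105 of 107). The others were the pseudogene Fut4-ps1, which was at 0 throughout, and B3gnt1, a symbol with no match in the GENCODE annotation that gave the gene types. The position of B3gnt1 (chromosome 19, 5038826 to 5041134, mm10) is that of B4gat1 in RefSeq, a glucuronyltransferase of the α-dystroglycan glycan. The exons of B3gnt4, B3gnt9, Chst15, Hs3st3a1, St3gal4 and St8sia1 overlap a gene on the opposite strand. Without a stated strand setting their counts may hold reads of that gene, over 38.9% of the exon bases of B3gnt4, 32.9% of Hs3st3a1, 16.5% of B3gnt9, 4.09% of St3gal4, 2.56% of Chst15 and 1.66% of St8sia1.

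Together the 107 genes took 61995 counts on day 3 morning, 77547 and 56891 on the morning and evening of day 4, 53222 in day 5 away and 72920 in day 5 around, or 0.404%, 0.397%, 0.344%, 0.319% and 0.381% of each library. Levels of different genes are compared as RPKM (CPM per kilobase of the gene length in the table). The gene with the highest level changed through the series. It was Gcnt3, which makes the branches of core 2 and core 4 O-glycans, on day 3 morning (145 RPKM) and day 4 morning (184 RPKM). On day 4 evening it was Hs3st1 (95.2 RPKM), the main 3-O-sulfotransferase of heparan sulfate. Away from the embryo it was Mgat2 (84.0 RPKM), which adds a branch to complex N-glycans, and around the embryo B4galt6 (144 RPKM), a galactosyltransferase that makes lactosylceramide. Summed by role, the level of the Gcnt genes was 221, 289, 181, 84.9 and 79.8 RPKM in library order, and that of the Mgat genes 101, 73.1, 85.2, 143 and 198 RPKM. Gcnt transcripts were thus most abundant before attachment, and Mgat transcripts in the day 5 pair. The genes of chain extension summed to 225, 294, 237, 223 and 387 RPKM, the Galnt genes to 176, 205, 184, 120 and 205, and the sialyltransferases to 82.7, 86.6, 87.3, 60.9 and 61.4. Fucosyltransferases summed to 59.8, 42.0, 45.1, 39.6 and 61.8 RPKM, Chst genes to 56.6, 55.7, 23.5, 64.7 and 40.9, and heparan sulfate genes to 41.2, 83.8, 126, 71.2 and 104.

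**Figure D1:**
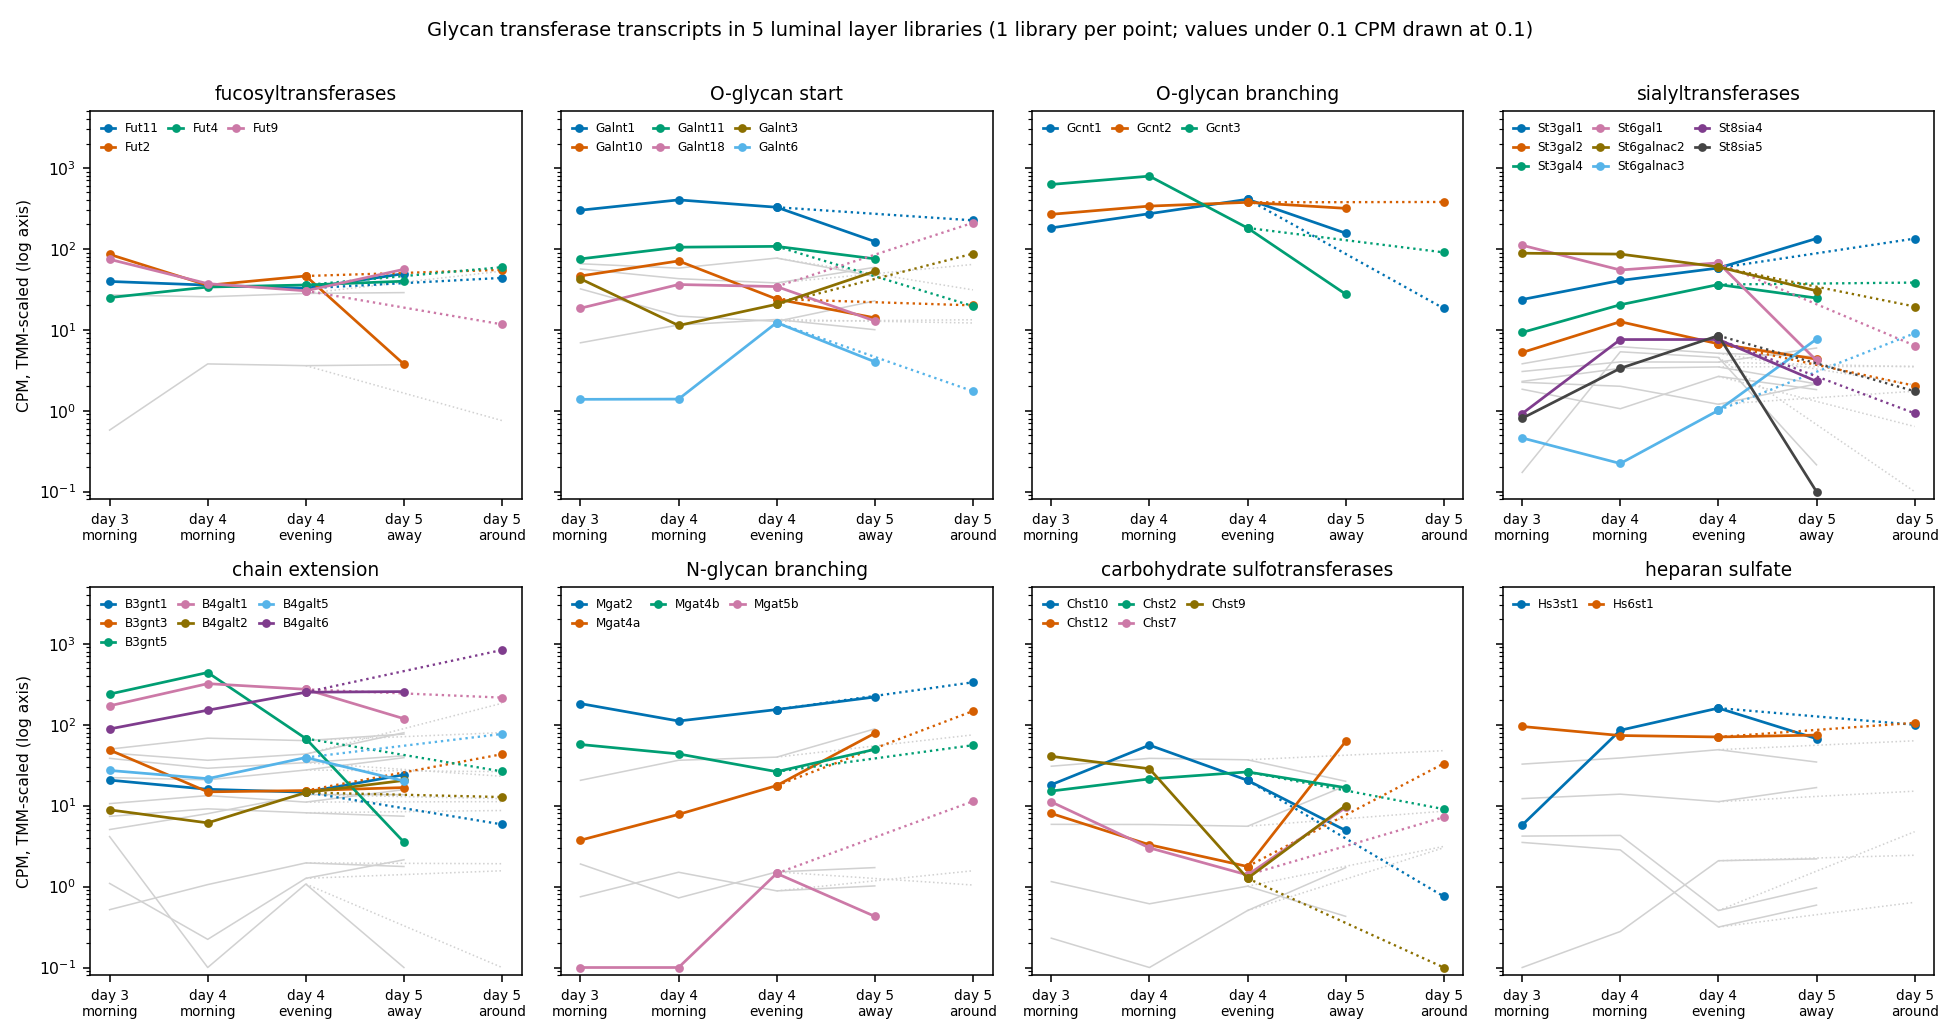
Levels of the 73 genes that passed the filter in CPM (TMM-scaled, log axis) in the 5 libraries, 1 library per point and 1 panel per role, with most of the genes described in the text in colour and the others in grey. Solid lines lead to the day 5 library away from the embryo and dotted lines to that around it, both from the same day 4 evening library, and Gcnt3 and B3gnt5 are seen to drop after day 4 morning while Mgat4a climbs through the series.

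Differences between libraries are given as log2 CPM differences with a prior count of 2, and a gene is said to be higher or lower, or to rise or fall, where it differed by more than 2-fold. Values in brackets are exact 95% limits by Clopper and Pearson for the ratio of a gene's counts, on the log2 scale, and cover counting error only. Sizes of rises and falls are these log2 values, so that a rise of 1 is 2-fold. A fold against a library at 0 is set against a floor of 3 counts per library (0.161 to 0.190 CPM) and written as at least that fold. From day 3 to day 4 morning, as the uterus becomes receptive, 10 of the 73 genes rose and 11 fell, where 7.41% and 11.5% of all genes did (28.8% in either direction against 18.9%). Among genes with at least 100 counts in either library, to which the leading genes are limited here and below, the rises were led by Hs3st1, St8sia4, Chst10, St3gal2 and St3gal4, and the falls by Galnt3, Chst7, B3gnt3, Fut2 and Chst12. When libraries were scaled by their totals, 7 rose and 15 fell (4.16% and 17.1% of all genes). From day 4 morning to evening, up to the time of attachment, 11 rose and 8 fell (26.0%, where 7.20% and 6.94% of all genes did, 14.1% together), with Galnt6, St8sia5, B4galt2 and Mgat4a among the first and Chst9, B3gnt5, Gcnt3, Galnt10 and Chst10 among the second.

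From day 4 evening to day 5 away, 10 rose and 17 fell (37.0%, where 13.0% and 12.7% of all genes did, 25.6% together). Chst12, Chst9, St6galnac3, Chst7 and Mgat4a led the rises, and St8sia5, B3gnt5, St6gal1, Fut2 and Gcnt3 the falls. By library totals 14 rose and 15 fell (17.4% and 9.78% of all genes). From the same day 4 evening library to day 5 around, 16 rose and 21 fell (50.7%, where 19.1% and 20.7% of all genes did, 39.8% together), led by Chst12, Mgat4a, St6galnac3, Mgat5b and Galnt18 and by Chst10, Gcnt1, St6gal1, St8sia4 and Galnt6. Both comparisons share that library. Around the embryo against away from it, 13 genes were higher and 14 lower (37.0%, where 13.3% and 15.0% of all genes were, 28.3% together), and 11 and 19 by library totals (9.97% and 21.7% of all genes). The higher were led by Mgat5b, Galnt18, Fut2, B3gnt5 and B4galt5 and the lower by Chst9, Gcnt1, Fut9, B3gnt1 and Galnt11. The median log2 difference of the 73 genes was 0.18, 0.06, 0.03, 0.07 and 0.11 over these 5 comparisons, against 0.00, 0.00, 0.01, -0.02 and -0.05 for all genes, and did not move with genes at 0 set to their bound.

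**Figure D2:**
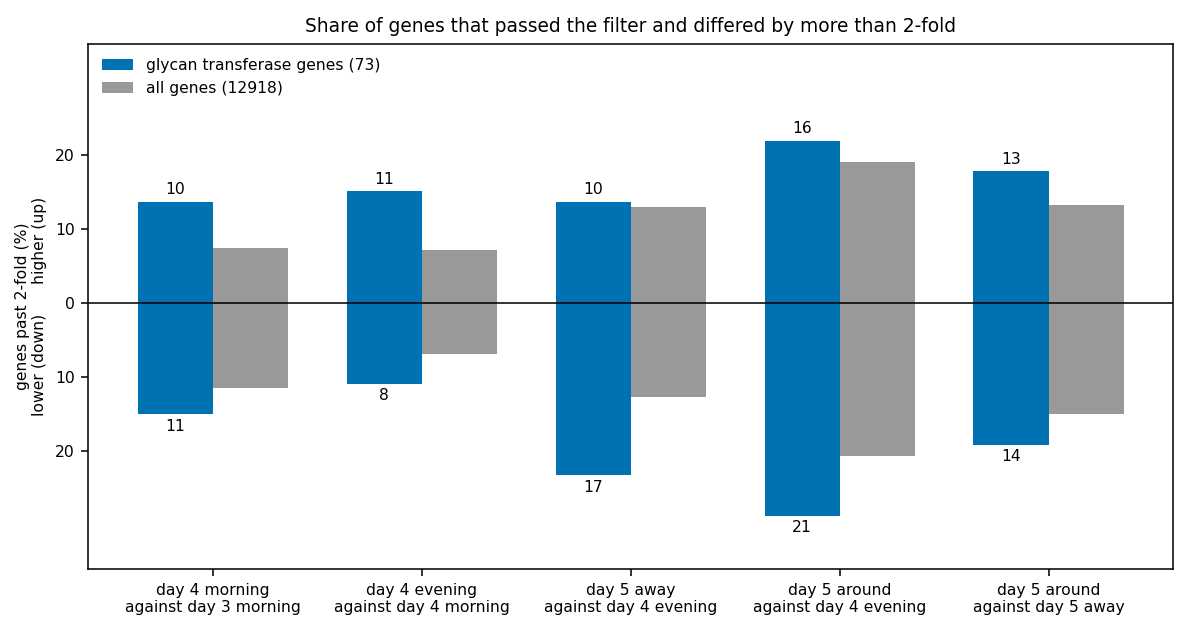
Share in percent of the 73 glycan transferase genes (blue) and of all 12918 genes (grey) that were higher (above 0) or lower (below 0) by more than 2-fold in each of the 5 comparisons of 1 library with 1 library. Numbers on the blue bars are counts of genes, from 8 lower between day 4 morning and evening to 21 lower between day 4 evening and day 5 around the embryo.

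Under scaling by library totals the median of all genes was -0.29, 0.05, 0.23, -0.11 and -0.36 in the 5 comparisons, and that of the 73 genes -0.05, 0.11, 0.26, -0.02 and -0.17, so that the sign of the members' median turned in 3 of them. The differences below are therefore relative to TMM scaling, and a difference described as past 2-fold that was within it under another scaling is noted as such. Across the 5 libraries, the median range of a gene (highest minus lowest log2 CPM) was 2.03 for the 73 genes and 1.36 for all genes, and 38 of the 73 (52.1%) spanned more than 4-fold, against 32.9% of all genes. A span above 16-fold was seen in 17 of them (23.3%, against 10.1%). The highest library was day 5 around for 24 genes (32.9%, against 28.8% of all genes), day 3 morning for 13 (17.8%, against 19.6%), day 5 away for 13 (17.8%, against 17.2%), day 4 evening for 12 (16.4%, against 14.7%) and day 4 morning for 11 (15.1%, against 19.7%). A set of 20 genes (27.4%, against 43.8% of all genes) passed 2-fold in none of the 5 comparisons, among them Fut4, Fut8, Fut11, Galnt2, Gcnt2, Hs6st1, Ndst1 and Ndst2.

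The Gcnt genes set how O-glycans branch, and those with the highest levels did not run in parallel. Gcnt3 (chromosome 9, 70031496 to 70038088, mm10) had 10855 counts on day 3 morning, 14217 and 2865 on the morning and evening of day 4, 514 in day 5 away and 1558 in day 5 around. It fell within day 4 (-2.13 [-2.19, -2.07]) and further to day 5 away (-2.71 [-2.85, -2.58]). The value around the embryo lay at the edge of 2-fold below day 4 evening (log2 limits [-1.09, -0.91], and inside 2-fold with DESeq2 size factors, -0.95) and was 1.71 [1.57, 1.86] above that away from it. Gcnt1 (chromosome 19, 17326141 to 17372844, mm10), the core 2 enzyme of most tissues, took another course. It had 3154, 4885, 6483, 2914 and 316 counts in library order. Against day 4 evening it was lower by a log2 difference of -1.39 [-1.45, -1.33] in day 5 away and -4.47 [-4.65, -4.32] in day 5 around. Gcnt3 was thus lower away from the embryo than around it, and Gcnt1 lower around it than away. Gcnt2, the enzyme of I branching, had 4641, 6060, 5943, 5903 and 6536 counts in library order and stayed within 2-fold in all 5 comparisons. As the others fell it became the Gcnt gene with the highest level on day 5 (45.0 RPKM away from and 53.9 RPKM around the embryo). Gcnt4 did not pass the filter. It was at 0 in the 3 libraries of days 3 and 4 and had 49 counts in day 5 away and 35 in day 5 around, and it is named here after its values were seen.

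Galnt1, a broadly expressed starter of O-glycans, led its family in the first 4 libraries. It had 5216, 7231, 5167, 2298 and 3875 counts in library order, and was lower in day 5 away than on day 4 evening (-1.41 [-1.48, -1.34]). Galnt18 (chromosome 7, 111471661 to 111779977, mm10) had 321 counts on day 3 morning, 651 and 541 on the morning and evening of day 4, 240 in day 5 away and 3611 in day 5 around. It was the leading Galnt gene around the embryo, at 81.4 RPKM. Against day 4 evening it was lower away from the embryo (-1.40 [-1.64, -1.19]) and higher around it (2.61 [2.49, 2.75]), a difference of 4.01 [3.84, 4.22] between the day 5 libraries. Galnt11 showed the opposite side of that pair. Its counts were 1305, 1883, 1698, 1404 and 338, so that the library around the embryo alone was low (log2 difference -1.93 [-2.11, -1.77] from that away from it).

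Other Galnt genes differed at earlier steps. Galnt3, known for glycosylating the phosphate hormone Fgf23, had 740, 203, 327, 984 and 1501 counts. It fell by 1.90 [-2.15, -1.69] between day 3 and day 4 morning and was higher than on day 4 evening in both day 5 libraries (1.35 [1.17, 1.54] away, 2.07 [1.90, 2.25] around). Galnt10, which prefers peptides that already carry a sugar, had 803, 1273, 379, 262 and 345 counts and fell within day 4 (-1.56 [-1.73, -1.40]). Galnt6 was high in a single library. It had 24 counts on day 3 morning, 25 and 194 on the morning and evening of day 4, 75 in day 5 away and 30 in day 5 around, and rose by 3.04 [2.53, 3.80] within day 4. Galnt14, below the filter and named after its values were seen, had 44 counts around the embryo and was at 0 in the other 4 libraries.

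Among fucosyltransferases, Fut2 (chromosome 7, 45648591 to 45666394, mm10), which makes the H antigen of secretory epithelia, had 1484 counts on day 3 morning, 637 and 731 on the morning and evening of day 4, 70 in day 5 away and 948 in day 5 around. It fell between the mornings of days 3 and 4 (-1.27 [-1.40, -1.13]) and again between day 4 evening and day 5 away (-3.58 [-4.00, -3.27]). Around the embryo it stayed within 2-fold of day 4 evening (0.25 [0.11, 0.39]) and was 3.83 [3.52, 4.25] above the library away from it. The day 5 library away from the embryo was the lowest of the 5 for Fut2, and the only one in which it did not lead the family per length. Fut1, its neighbour on chromosome 7 and the other gene of the H antigen, was near the floor, with 3, 4, 0, 0 and 0 counts. Fut9, an enzyme of the Lewis x structure, had 1289, 667, 479, 1042 and 201 counts. It was at the edge of 2-fold from day 3 to day 4 morning (log2 limits [-1.14, -0.86], and -1.30 by library totals), and lower around the embryo than on day 4 evening (-1.37 [-1.62, -1.13]) and than away from the embryo (-2.25 [-2.48, -2.04]). Fut2 was therefore the higher and Fut9 the lower around the embryo in the day 5 pair. Fut4, which also makes Lewis x, had 434, 606, 566, 743 and 1022 counts, and Fut8, the enzyme of core fucose on N-glycans, 469, 459, 445, 537 and 914. Fut11 had 687, 640, 514, 921 and 754 counts. These last 3 did not differ by 2-fold in any comparison. Fut7, the enzyme of sialyl Lewis x in leukocytes, had at most 4 counts in a library.

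Of the 14 sialyltransferase genes that passed, 5 rose and 1 fell from day 3 to day 4 morning (7.41% and 11.5% of all genes did; 3 and 2 by library totals, where 4.16% and 17.1% did), 3 rose and none fell within day 4 (7.20% and 6.94%), 2 rose and 4 fell from day 4 evening to day 5 away (13.0% and 12.7%), and 2 rose and 8 fell from day 4 evening to day 5 around (19.1% and 20.7%). St6gal1 (chromosome 16, 23224740 to 23360350, mm10), which caps N-glycans with α2,6-linked sialic acid, had 1923 counts on day 3 morning, 984 and 1061 on the morning and evening of day 4, 78 in day 5 away and 110 in day 5 around. Its difference between the mornings of days 3 and 4 lay at the edge of 2-fold (-1.01 [-1.13, -0.90]) and inside it with DESeq2 size factors. Both day 5 libraries were far below day 4 evening, by a log2 difference of -3.97 [-4.35, -3.67] in day 5 away and -3.37 [-3.69, -3.11] in day 5 around. St3gal1 (chromosome 15, 67102875 to 67176882, mm10), which adds α2,3-linked sialic acid to core 1 O-glycans, showed the reverse. Its counts were 411, 730, 917, 2503 and 2305, and both day 5 libraries were 1.21 [1.10, 1.32] above day 4 evening. St6galnac2, which sialylates the inner sugar of O-glycans, was the leading sialyltransferase per length in the first 3 libraries and St3gal1 in the day 5 pair. St6galnac2 had 1534, 1547, 946, 565 and 334 counts, and was lower around the embryo than on day 4 evening (-1.62 [-1.81, -1.44]).

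Several sialyltransferases of lower level had a window of a few libraries. St8sia4, a polysialic acid synthase, had 16, 136, 120, 43 and 16 counts, and rose by 2.89 [2.29, 3.89] from day 3 to day 4 morning. St8sia5, which acts on gangliosides, had 14 counts on day 3 morning, 60 and 134 on the morning and evening of day 4, 0 in day 5 away and 30 in day 5 around. It was at least 52.7-fold lower away from the embryo than on day 4 evening and at least 10.8-fold higher around the embryo than away from it. St6galnac1, the enzyme of the sialyl-Tn antigen and a neighbour of St6galnac2 on chromosome 11 (a gap of 70.4 kb), had 3, 96, 72, 4 and 0 counts. These genes were high on day 4 and low on day 3 and in at least 1 of the day 5 libraries. St6galnac3, a sialyltransferase of O-glycans and gangliosides, was instead high on day 5. It had 8, 4, 16, 143 and 156 counts, a rise from day 4 evening of 2.79 [2.17, 3.77] in day 5 away and 3.03 [2.42, 4.01] in day 5 around. St3gal4, which sialylates lactosamine ends on the way to sialyl Lewis x, had 161, 366, 573, 460 and 660 counts, and rose between the mornings of days 3 and 4 (1.13 [0.87, 1.41], but 0.83 by library totals). St3gal2 had 91, 226, 106, 81 and 35 counts and rose in the same comparison (1.25 [0.91, 1.63], but 0.95 by library totals).

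In chain extension, B3gnt5 (chromosome 16, 19760234 to 19772753, mm10), which starts lacto-series glycolipids on lactosylceramide, had 4150 counts on day 3 morning, 7930 and 1067 on the morning and evening of day 4, 66 in day 5 away and 456 in day 5 around. It fell within day 4 (-2.71 [-2.80, -2.62]) and further to day 5 away (-4.21 [-4.63, -3.89]). Around the embryo it was lower than on day 4 evening (-1.35 [-1.51, -1.19]) and higher than away from it (2.86 [2.53, 3.30]), an order of the 5 libraries that Gcnt3 shared. B4galt6, a synthase of the lactosylceramide that B3gnt5 extends, took another course. It had 1539, 2714, 3987, 4787 and 14426 counts, with a rise of 1.73 [1.68, 1.78] from day 4 evening to day 5 around and no 2-fold difference away from it (0.03 [-0.03, 0.09]). B4galt5, the other lactosylceramide synthase, had 473, 387, 622, 376 and 1324 counts and was 1.93 [1.76, 2.10] higher around the embryo than away from it. Both synthases were highest around the embryo. B4galt1, the main galactosyltransferase of lactosamine chains, had 2973, 5775, 4332, 2214 and 3724 counts, and was lower away from the embryo than on day 4 evening (-1.21 [-1.28, -1.13], but -0.98 by library totals). B4galt2 had 154, 110, 230, 382 and 220 counts and rose within day 4 (1.23 [0.91, 1.59]).

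B3gnt3, which extends core 1 O-glycans, was high at both ends of the series. It had 846, 266, 243, 312 and 744 counts, falling from day 3 to day 4 morning (-1.71 [-1.92, -1.52]) and rising by 1.48 [1.28, 1.71] from day 4 evening to day 5 around. B3gnt1 (the B4gat1 position above) had 359, 286, 232, 449 and 101 counts and was lower around the embryo than away from it (log2 difference -2.02 [-2.36, -1.72]). B3gnt2, the main enzyme of long lactosamine chains, is named after its values were seen. It had 778, 653, 688, 1486 and 3170 counts and was higher around the embryo than on day 4 evening (log2 difference 2.08). Of the 17 genes of this role that passed, 7 (B3galt4, B3galt6, B3gnt7, B3gnt9, B4galt3, B4galt4 and B4galt7) passed 2-fold in no comparison under TMM scaling, where 43.8% of all genes did not, and by library totals B4galt4 was lower around the embryo than away from it (-1.15).

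Of the 7 Mgat genes that passed, most of which act on the branches of N-glycans, 2 were higher and 1 lower than on day 4 evening in day 5 away (13.0% and 12.7% of all genes), and 4 higher and none lower in day 5 around (19.1% and 20.7%). Mgat5b, 1 of these 4, had no more than 23 counts in any other library and passed the filter only through day 5 around. By library totals 3 of the 7 were higher and 1 lower in day 5 away (17.4% and 9.78% of all genes). In day 5 around 3 were higher and none lower by library totals (17.6% and 22.3%). By totals without the features Rn45s and Lars2, 2 were higher and none lower there (16.6% and 23.6%). Mgat2 (chromosome 12, 69184158 to 69186773, mm10) had 3165 counts on day 3 morning, 1995 and 2435 on the morning and evening of day 4, 4101 in day 5 away and 5755 in day 5 around, and led its family per length in every library. It was higher around the embryo than on day 4 evening (1.12 [1.05, 1.19], but 0.97 by totals without the features Rn45s and Lars2). Mgat4a (chromosome 1, 37439340 to 37536259, mm10), which adds a further branch to complex N-glycans, had 65, 140, 280, 1463 and 2538 counts. It rose at each step up to day 5, by 1.04 [0.62, 1.51] from day 3 to day 4 morning (0.74 by library totals), 1.17 [0.89, 1.49] within day 4, and from day 4 evening 2.14 [1.96, 2.34] in day 5 away and 3.05 [2.88, 3.24] in day 5 around. Its paralogue Mgat4b had 989, 782, 416, 924 and 961 counts. It was higher around the embryo than on day 4 evening (1.08 [0.92, 1.25], but 1.00 by library totals, inside 2-fold). Mgat5b, known for branching O-mannosyl glycans of the brain, was at 0 on the mornings of days 3 and 4 and had 23 counts on day 4 evening, 8 in day 5 away and 195 in day 5 around. It rose at least 8.70-fold within day 4 and was 4.39 [3.72, 5.95] higher around the embryo than away from it.

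Of the 9 carbohydrate sulfotransferase genes that passed, 7 differed by more than 2-fold in each of the comparisons of day 5 with day 4 evening, where 25.6% (away) and 39.8% (around) of all genes did. Away from the embryo 5 were higher and 2 lower, of which Chst1, with 16 and 8 counts, had limits that include no difference (-1.05 [-2.67, 0.07]) and was within 2-fold by library totals (-0.86), and around it 4 were higher and 3 lower. Chst12 (chromosome 5, 140505609 to 140525238, mm10), which adds 4-O-sulfate to chondroitin, had 139 counts on day 3 morning, 59 and 28 on the morning and evening of day 4, 1162 in day 5 away and 571 in day 5 around. It fell by 1.26 [-1.75, -0.84] from day 3 to day 4 morning, and from day 4 evening to day 5 rose by 5.05 [4.60, 5.73] in day 5 away and 4.14 [3.68, 4.83] in day 5 around. Chst7, a sulfotransferase of N-acetylglucosamine and chondroitin, also had its lowest value on day 4 evening. Its counts were 193, 54, 22, 177 and 124, with a fall between the mornings of days 3 and 4 (-1.85 [-2.35, -1.44]) and a rise from day 4 evening of 2.67 [2.13, 3.48] in day 5 away and 2.28 [1.71, 3.10] in day 5 around. Chst9, a 4-O-sulfotransferase of N-acetylgalactosamine, had 706 counts on day 3 morning, 513 and 20 on the morning and evening of day 4, 187 in day 5 away and 1 in day 5 around. It fell by 4.38 [-5.22, -3.86] within day 4, rose by 2.88 [2.32, 3.73] to day 5 away, and differed by -5.87 [-12.74, -4.94] between the day 5 libraries. In all 3 genes day 5 away was above day 4 evening, while in day 5 around Chst12 and Chst7 were above it and Chst9 below it.

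Chst10, the sulfotransferase of the HNK-1 epitope, was high on day 4 morning. It had 315, 1004, 325, 92 and 13 counts (chromosome 1, 38863873 to 38898160, mm10). Between the mornings of days 3 and 4 it rose by 1.62 [1.44, 1.81], within day 4 it fell by 1.44 [-1.63, -1.26], and it was lower than on day 4 evening both away from the embryo (-2.03 [-2.41, -1.72]) and around it (-4.57 [-5.69, -3.97]). Chst2, which sulfates N-acetylglucosamine in selectin ligands, had 263, 384, 413, 311 and 156 counts and was lower around the embryo than on day 4 evening (-1.52 [-1.80, -1.26]). Chst4, a further enzyme of selectin ligands, had at most 2 counts in a library, which is at or under the floor.

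Among the genes of heparan sulfate, Hs3st1 (chromosome 5, 39613935 to 39644631, mm10), which adds the rare 3-O-sulfate, had 100 counts on day 3 morning, 1534 and 2538 on the morning and evening of day 4, 1254 in day 5 away and 1719 in day 5 around. It rose by 3.86 [3.60, 4.20] from day 3 to day 4 morning, and against day 4 evening it was lower in day 5 away (-1.25 [-1.35, -1.16]) and within 2-fold in day 5 around (-0.68 [-0.77, -0.60]). Day 3 morning alone was low. Hs6st1, the 6-O-sulfotransferase with the highest level, had 1651, 1320, 1116, 1388 and 1816 counts, and Ndst1, which starts sulfation of the chain, had 566, 697, 777, 645 and 1090. Neither differed by 2-fold in any comparison, nor did Ndst2. Of the 14 genes of this role, 7 passed the filter, and Hs3st2, Hs3st5 and Ndst4 were at 0 in all libraries.

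Between the day 5 libraries and the day 4 evening library they were both compared with, 7 of the 73 genes were higher in both, where 8.67% of all genes were (Chst7, Chst12, Chst13, Galnt3, Mgat4a, St3gal1 and St6galnac3) and 10 were lower in both, against 8.58% (B3galt5, B3gnt5, Chst10, Galnt6, Gcnt1, Gcnt3, St6gal1, St6galnac1, St8sia4 and St8sia5). In 30 the differences were within 2-fold in both (41.1%, against 53.3% of all genes). Chst9 alone was higher away from the embryo and lower around it, as were 0.565% of all genes, and 3 genes (Chst1, Galnt18 and Mgat5b) were lower away and higher around, as were 0.96%. Beside all values around the embryo stand the markers given above. All that passed the filter were higher there than away from the embryo in the lists of embryo (6 of 6), smooth muscle (5 of 5) and gland (4 of 4, and 3 by library totals). The filter is a mean that includes the library around the embryo. A marker low elsewhere could pass through that library alone, so these counts are in part set by the filter. In the luminal epithelium list 4 of 9 were higher and 1 lower (2 and 1 by library totals). The lower gene, Msx1 (-1.01), was within 2-fold with DESeq2 size factors (-0.96). Markers of endothelium, stroma and leukocytes went both ways.

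**Figure D3:**
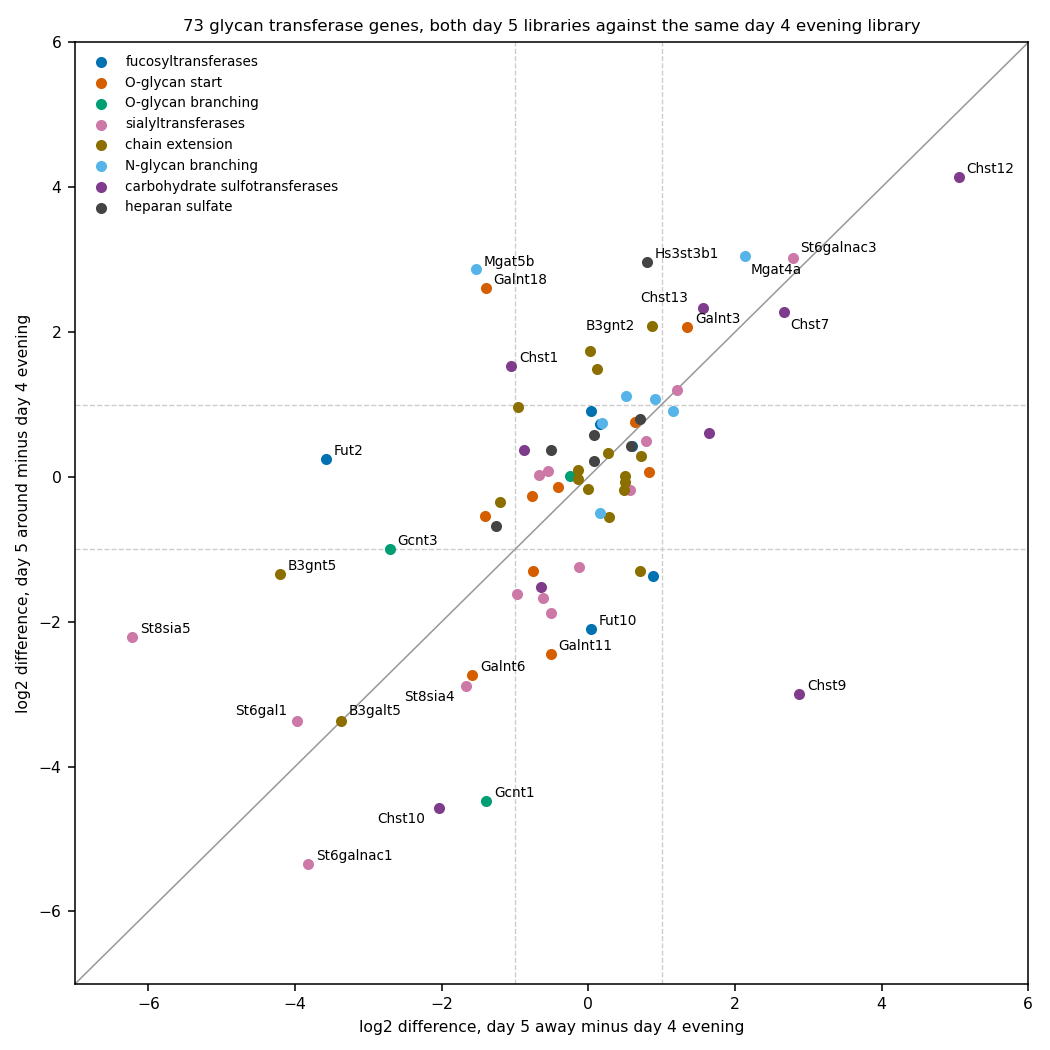
Log2 CPM difference of each of the 73 genes from the day 4 evening library in day 5 away (x axis) and in day 5 around (y axis), 1 point per gene, coloured by role. Dashed lines mark 2-fold and the diagonal equal differences. Both axes share that day 4 evening library, and Chst9 lies in the lower right and Chst1, Galnt18 and Mgat5b in the upper left.

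The sugars these enzymes transfer must first be activated, and a list of 35 gene symbols of sugar nucleotide synthesis, salvage and Golgi transport, 33 of them in the table, was read beside them. Tsta3 and Fuk were also listed under their newer symbols, Gfus and Fcsk. Of these, 31 passed, and 2 rose and 2 fell from day 3 to day 4 morning, 2 rose and 1 fell within day 4, 3 rose and 3 fell to day 5 away and 7 rose and 6 fell to day 5 around, and 1 was higher and 4 lower in day 5 around than in day 5 away. Here and for the lists below, the shares of all genes that were higher and lower are 7.41% and 11.5%, 7.20% and 6.94%, 13.0% and 12.7%, 19.1% and 20.7%, and 13.3% and 15.0% in the order of the comparisons. By library totals the counts of this list were 1 and 3, 3 and 1, 6 and 3, 4 and 6, and 1 and 5, and so scaled the shares of all genes are 4.16% and 17.1%, 7.83% and 6.34%, 17.4% and 9.78%, 17.6% and 22.3%, and 9.97% and 21.7%. Npl, the lyase that degrades free sialic acid, had 15787 counts on day 3 morning, 31108 and 13177 on the morning and evening of day 4, 77 in day 5 away and 63 in day 5 around. Fuk, the kinase that salvages free fucose, had 596, 1566, 847, 163 and 77 counts, rose from day 3 to day 4 morning (1.34), and was lower than on day 4 evening in both day 5 libraries (-2.60 away, -3.55 around). The salvage gene of fucose and the lyase of sialic acid thus fell together on day 5. Tsta3 and Gmds, which make activated fucose from mannose and were looked up after the values of Fuk were seen, stayed within 2-fold (Gmds fell by library totals between the mornings of days 3 and 4, -1.05), with 644, 665, 559, 668 and 733 counts for Tsta3 and 363, 222, 312, 343 and 246 for Gmds. Gne, the key enzyme of sialic acid synthesis, was low in 1 library, with 198, 192, 213, 351 and 36 counts and a log2 difference of -3.10 around the embryo against away from it. In the same comparison Papss2, which makes the sulfate donor, was higher (1.90), with 14, 10, 14, 45 and 160 counts. Gnpnat1, an enzyme of activated N-acetylglucosamine, rose within day 4 (1.28), from 2832 to 6077 counts, and Uap1l1 fell and rose again over the first 3 libraries (222, 79 and 157 counts, log2 differences -1.51 and 1.15).

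Other glycan transferases, whose symbols the name rule did not take, formed a list of 38 genes, of which 25 passed. Over the 5 comparisons in order, 4 were higher and 1 lower, 2 and none, 6 and 4, 5 and 6, and 3 and 5. By library totals none was higher and 3 were lower in the first comparison, and 7 and 3 in the third. By totals without Rn45s and Lars2, 3 were higher and 6 lower in day 5 around than on day 4 evening (16.6% and 23.6% of all genes). C1galt1, which makes the core 1 O-glycan that Gcnt1 branches, had 595, 1068, 1072, 574 and 2590 counts and was higher around the embryo than away from it (2.28). B4galnt1, the synthase of complex gangliosides, had 285, 147, 74, 801 and 1248 counts, with a rise from day 4 evening of 3.17 in day 5 away and 3.92 in day 5 around. Its relative B4galnt4 had 58, 1, 15, 104 and 329 counts, with rises of 2.42 and 4.18. Both were higher in each day 5 library than on day 4 evening. Ggta1, the enzyme of the α-Gal epitope, peaked on day 4 evening, with 95, 223, 727, 210 and 311 counts and rises of 1.17 (0.87 by library totals) and 1.88 at the first 2 steps. Rfng, a Notch-modifying transferase, rose from day 3 to day 4 morning (1.25, but 0.95 by library totals), from 636 to 1571 counts. B3galnt1, which makes globoside, had 472 counts on day 4 evening against 307 that morning, within 2-fold (0.80).

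For glycosaminoglycans, 21 of 29 listed genes of polymerisation and editing passed. They were higher and lower in 1 and 5, 3 and 1, 2 and 4, 7 and 2, and 4 and 1 cases over the 5 comparisons in order, and by library totals in 1 and 6, 3 and 1, 4 and 3, 6 and 3, and 4 and 2. Hpse, the heparanase that cuts heparan sulfate, had 127 counts on day 3 morning, 5 and 4 on the morning and evening of day 4, 154 in day 5 away and 268 in day 5 around. It fell by 4.24 between the mornings of days 3 and 4 and was higher on day 5 than on day 4 evening by 4.51 in day 5 away and 5.41 in day 5 around. Glce, the epimerase of the chain, had 1255, 3324, 2298, 574 and 530 counts, and was lower than on day 4 evening in both day 5 libraries, with a log2 difference of -2.23 in each. Sulf2, which removes 6-O-sulfate outside the cell, had 373, 89, 438, 121 and 534 counts and rose within day 4 (2.45), and Sulf1 had 158, 101, 116, 71 and 568. Sulf2 and Sulf1 were higher around the embryo than away from it, by 2.24 and 3.08. Csgalnact1, which starts chondroitin chains, had 240, 4, 16, 7 and 52 counts and fell by 5.37 from day 3 to day 4 morning, and Dsel, a dermatan sulfate epimerase, fell within day 4 (-1.30), from 384 to 136 counts.

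Of the 32 listed symbols of glycan trimming and breakdown, of which Oga and Mgea5 name the same gene, 30 passed. Higher and lower were 1 and 3, 1 and 1, 10 and 5, 7 and 7, and 2 and 6 over the comparisons in order, and by library totals 0 and 4, 1 and 1, 11 and 4, 6 and 8, and 1 and 10. By totals without Rn45s and Lars2, 4 were higher and 8 lower in day 5 around than on day 4 evening (16.6% and 23.6% of all genes). All genes too were past 2-fold more often in the comparisons of day 5 (25.6%, 39.8% and 28.3%) than in the first 2 (18.9% and 14.1%). Engase, which releases N-glycans in the cytosol, had 84, 164, 263, 18 and 16 counts, and was lower than on day 4 evening by -3.95 in day 5 away and -4.00 in day 5 around. Neu2, a cytosolic sialidase, had 98, 239, 163, 26 and 220 counts, lower away from the embryo than on day 4 evening (-2.79) and 3.09 higher around it than away. Man2a2, a Golgi mannosidase that acts between Mgat1 and Mgat2, had 402, 488, 447, 198 and 46 counts and was lower around the embryo than on day 4 evening (-3.35). Arsb, a lysosomal sulfatase, had 588, 215, 234, 253 and 49 counts, with a fall from day 3 to day 4 morning (-1.49) and a difference of -2.21 between the day 5 libraries. Galc, a lysosomal galactosidase of glycolipids, also fell between those mornings (-1.72), from 367 to 114 counts. Within day 4, Gla rose (1.46), from 100 to 246 counts, and Arsa fell (-1.27), from 153 to 55.

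The proteins that carry the glycans, with the lectins that bind them, formed a list of 32 genes, of which 21 passed. Higher and lower were 1 and 3, 0 and 2, 5 and 3, 12 and 2, and 9 and 4 in the order of the comparisons, and by library totals 0 and 7, 0 and 2, 5 and 1, 11 and 3, and 7 and 5. Sdc1, an epithelial heparan sulfate proteoglycan, had 1134 counts on day 3 morning, 283 and 374 on the morning and evening of day 4, 3926 in day 5 away and 7293 in day 5 around. It fell by 2.04 between the mornings of days 3 and 4 and rose from day 4 evening by 3.15 in day 5 away and 4.16 in day 5 around. Sdc2 had 1836, 508, 424, 3577 and 1355 counts, with a rise of 2.83 away from the embryo. Both syndecans, like Chst12, had their lowest values on day 4. The glypican Gpc3 had 19, 39, 34, 226 and 538 counts, 3.79 higher around the embryo than on day 4 evening. Muc1, a mucin of the apical glycocalyx, had 2427, 1506, 1730, 915 and 4167 counts and was 2.30 higher around the embryo than away from it. Muc4 had 527, 65, 107, 184 and 673 counts, with a fall between the mornings of days 3 and 4 (-3.03) and a difference of 1.97 between the day 5 libraries. Podxl and Sdc3 fell within day 4, Podxl from 1182 to 263 counts (-1.98) and Sdc3 from 102 to 21 (-2.01).

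Progesterone, oestrogen and Lif are known to act on the uterine epithelium at this time, through nuclear receptors and Stat proteins, and the promoters of the genes were searched for the letters of their elements. RefSeq promoters (GRCm38.p6, 250 bases before to 50 after each start) were matched by symbol for 80 of the 107 genes, with 109 promoters among 32851 in all. Both strands were searched. The progesterone receptor element, searched as GNACA and TGTNC with 3 bases between them, was found in 2 of the 109 (Galnt11 and St8sia1) and in 0.475% of all promoters, and the oestrogen receptor element, GGTCA and TGACC with 3 bases between them, in none and in 0.0700%. The Stat element TTCNNNGAA was found in 5 of the 109 (4.59%; B3galt5, B4galt1, Gcnt2, Gcnt4 and Mgat2) and in 8.30% of all promoters. Its stricter form TTCCNGGAA, each match of which is also a match of TTCNNNGAA, was found in 1 (Gcnt4) and in 1.15% of all. The promoters with the stricter Stat element and, among genes that passed the filter, with the progesterone receptor element are shown, with the match in capitals. That of Gcnt4, the branching gene counted on day 5 alone, lies at chr13:96924094-96924393 on the plus strand, and is 1 of its 2 listed promoters. That of Galnt11, lower around the embryo, lies at chr5:25246123-25246422 on the plus strand, inside the span of the gene, and is also 1 of 2. A match of letters is a description of the sequence, and binding was not tested.
Gcnt4 promoter: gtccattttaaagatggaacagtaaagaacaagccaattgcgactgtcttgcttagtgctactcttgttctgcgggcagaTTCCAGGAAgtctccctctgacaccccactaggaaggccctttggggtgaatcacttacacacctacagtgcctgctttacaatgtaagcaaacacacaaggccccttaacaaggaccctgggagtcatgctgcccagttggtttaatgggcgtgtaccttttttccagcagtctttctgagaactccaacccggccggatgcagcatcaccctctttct
Galnt11 promoter: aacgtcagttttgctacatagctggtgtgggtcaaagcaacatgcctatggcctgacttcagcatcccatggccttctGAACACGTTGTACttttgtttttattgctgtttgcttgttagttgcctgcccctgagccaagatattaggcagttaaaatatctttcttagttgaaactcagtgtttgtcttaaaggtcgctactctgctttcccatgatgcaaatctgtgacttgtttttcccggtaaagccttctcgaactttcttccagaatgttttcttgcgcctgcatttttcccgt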

How the data were processed

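RNA-seq of the luminal layer was analysed in 5 libraries, prepared with NucleoSpin columns and SMART-seq v.4 amplification. The authors aligned reads with HISAT2 to GRCm38/mm10 and deposited raw counts per gene from featureCounts (Subread 2.0.0), with no normalization; the annotation, strand setting and handling of multiply aligned reads are not given in the sources used here. The length column of the table, in bases, was used for RPKM. Totals ranged from 15334674 to 19529491, and Rn45s and Lars2 took 15.0% to 23.2% of them. Counts were scaled by TMM in edgeR 4.0.16 (R 4.3.3), log2 CPM was taken with a prior count of 2, and the filter kept genes whose CPM by library totals averaged 1 or more. With 1 library per group nothing was tested, and the 2-fold threshold is the fold of the study's own rule. Python 3.11.15, numpy 2.4.6, scipy 1.17.1, pandas 2.3.3 and matplotlib 3.10.9 were used, and the steps were tested on simulated data. Alternatives were DESeq2 1.42.0 size factors, library totals with and without Rn45s and Lars2, a prior count of 0.5, no filter, a filter at 5 CPM, 4-fold, and the whole counting interval beyond 2-fold.

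The genes and lists were chosen with earlier results of these data known. Named were the 5 genes with the largest difference in each direction and comparison among those past 2-fold with at least 100 counts in either library, the 2 with the highest mean RPKM in each of the 8 roles, Fut1, Fut2, Fut4, Fut9, St3gal4, St6gal1, Gcnt1, Chst2 and Chst4, and, of each of 5 pathway lists, the 2 genes with the largest difference per comparison among those with at least 100 counts in either library. B3gnt2, Fut7, Fut8, Galnt14, Gcnt4, Gmds, Ndst1, St6galnac1, Tsta3 and the genes enumerated by pattern were named after their values were seen. Of the 7 marker lists, all are given.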

Additional observations from a re-analysis of the deposited data

Results flagged for a closer look

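In 4 genes the differences from day 4 evening ran in opposite directions in the day 5 libraries, each by more than 2-fold. With 1 library each, the difference between the day 5 libraries was not tested, and both differences rest on the same day 4 evening library. Galnt18, a starter of O-glycans, had 541 counts on day 4 evening, 240 in the library away from the embryo and 3611 in that around it, so that the library around the embryo was 4.01 higher on the log2 scale than that away from it. Mgat5b, known for branching O-mannosyl glycans, had 23, 8 and 195 counts in the same order, a log2 difference of 4.39. Chst9, a sulfotransferase of N-acetylgalactosamine, had 20, 187 and 1 counts, a log2 difference of -5.87. Chst1, which sulfates galactose in keratan sulfate, had 16, 8 and 54 counts, a log2 difference of 2.58. Its value away from the embryo passed 2-fold under TMM scaling (-1.05), with counting limits that include no difference [-2.67, 0.07], but not by library totals (-0.86).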

How the results depend on the processing

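No paired analysis was possible because each group has 1 library. Under the scalings by DESeq2 size factors and library totals and with a prior count of 0.5, the counts of all 73 glycan transferases past 2-fold stayed within 1.5 times those in the report, while the smaller counts of single roles and pathway lists moved further in part, and no difference of a named gene past 2-fold changed sign. The median difference of the glycan transferases changed sign by library totals between the mornings of days 3 and 4 (0.18 to -0.05). It also did to day 5 around the embryo (0.07 to -0.02) and around against away (0.11 to -0.17). The medians stayed within the 95% interval of the median over genes. That interval reflects the spread between genes only, and not error between libraries or scalings. The counts moved further with the filter and the threshold, which change how many genes can pass by construction. Shares of all genes under these filters and thresholds are not given here. Whether the members differ from all genes under them was therefore not tested. Between the mornings of days 3 and 4, 5 genes rose and 7 fell with a mean CPM of at least 5, 19 fell without a filter, 4 rose and 1 fell by more than 4-fold, and 6 rose and 5 fell with the whole counting interval beyond 2-fold. Within day 4, 19 rose and 15 fell without a filter, 2 rose with a mean CPM of at least 5, 6 rose and 5 fell by 4-fold, and 4 rose by the interval. From day 4 evening to day 5 away from the embryo, 16 rose without a filter, 10 fell with a mean CPM of at least 5, and 5 rose and 8 fell by 4-fold. To day 5 around the embryo, 25 rose without a filter, 13 fell with a mean CPM of at least 5, and 10 rose and 11 fell by 4-fold. Around against away from the embryo, 22 were higher without a filter, 8 lower with a mean CPM of at least 5, 7 higher and 6 lower by 4-fold, and 7 lower by the interval. Over these counts and medians, 84 values stayed and 26 moved, and of the differences of named genes under other scalings and prior count 666 stayed and 154 moved. Depth limits genes near the floor of 3 counts, such as Fut1, Chst4 and Chst9 around the embryo, and contributions of other cells to the library around the embryo were not tested.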
